A study of Mus musculus with 4 samples.

Results

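The miR-322 to miR-450b cluster is a run of 7 miRNA genes on the mouse X chromosome that encodes miR-322, miR-503, miR-351, miR-542, miR-450a and miR-450b. Its probes were chosen by name: every probe of the table that names one of these miRNAs, on either arm, was taken, which gave 9 of the 566 mouse miRNA probes and of the 599 probes in all. The rule uses names and no measured value. The levels came from the NanoString nCounter assay, in which fluorescently barcoded probes are counted without amplification. The samples were 2 replicates of wild-type (WT) R1 mouse embryonic stem cells (ESCs) and 2 replicates of R1 ESCs in which the 3 genes for the DNA methyltransferases, Dnmt1, Dnmt3a and Dnmt3b, are knocked out (TKO). The labels give no age, and no difference in handling between the genotypes. Both were grown on gelatin in serum medium with leukemia inhibitory factor, and according to the labels both had been differentiated for 4 days before RNA was taken, by a method that the labels do not name. Each genotype is 1 line, for which the sources used here give no number of clones, so the loss of the enzymes and any other difference between the lines cannot be told apart. The labels call the replicates biological without saying how the cultures were separated, so the p-values below measure only the spread between these samples.

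A miRNA is cut from a hairpin in a longer primary transcript, first by Drosha in the nucleus and then by Dicer in the cytoplasm. One of the arms then guides Argonaute to mRNAs that match its seed, the stretch of bases near its 5′ end. miR-322 and miR-503 have seeds like that of the miR-15/16 family, which is known for restraining the cell cycle by lowering cyclins and other drivers of the G1 phase, and both are known to accompany muscle and mesodermal differentiation. miR-351 carries the seed of the miR-125 family, whose first described member, lin-4, times development in the worm. The roles of miR-542 and of the miR-450 miRNAs are less well described.

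In the RefSeq annotation of GRCm38.p6 the 7 hairpins lie on the minus strand within 6353 bases, at chrX:53047997-53054349. In the direction of transcription they run Mir322, Mir503, Mir351, Mir542, Mir450-2, Mir450-1 and Mir450b. Mir322, Mir503 and Mir351 fall inside the span of the non-coding RNA gene C430049B03Rik, and the 4 genes further downstream do not. The mature sequences below are from the RefSeq table of the same build, 5′ to 3′, with bases 2 to 8, the seed, in capitals. They are shown because the seeds split the cluster into the families by which the results are ordered, and because close copies limit what a probe can tell apart. The first group holds miR-322 and miR-503 with their most abundant relatives from other loci.

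mmu-miR-322-5p: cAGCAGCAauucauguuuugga
mmu-miR-503-5p: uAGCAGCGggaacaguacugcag
mmu-miR-16-5p: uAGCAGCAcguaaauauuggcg
mmu-miR-15b-5p: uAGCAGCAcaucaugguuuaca

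miR-322 had the full seed of miR-15 and miR-16, whereas miR-503 departed from it at the last seed base. miR-351 had the full seed of miR-125a and miR-125b.

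mmu-miR-351-5p: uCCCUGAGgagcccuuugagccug
mmu-miR-125b-5p: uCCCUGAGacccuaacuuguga

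The miR-542 and miR-450 miRNAs form their own groups. miR-450a-5p is made from both Mir450-1 and Mir450-2, while the 3p arms of these 2 hairpins differ, and the table's miR-450a-3p probe does not say which of them it reads.

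mmu-miR-542-5p: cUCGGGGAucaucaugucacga
mmu-miR-542-3p: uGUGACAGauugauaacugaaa
mmu-miR-450a-5p: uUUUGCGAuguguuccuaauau
mmu-miR-450b-5p: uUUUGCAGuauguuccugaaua
mmu-miR-450a-1-3p: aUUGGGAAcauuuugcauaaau
mmu-miR-450a-2-3p: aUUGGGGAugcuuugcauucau
mmu-miR-450b-3p: aUUGGGAAcauuuugcaugcau

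miR-450a-1-3p and miR-450b-3p were identical at 20 of 22 positions and shared their seed, so the probes for these miRNAs may read each other's targets. miR-450a-5p and miR-450b-5p were identical at 15 of 22 positions. The probes for miR-322, miR-351 and miR-503 carry no arm in their names, and which arm they read is not stated in the table. The study grouped miRNA genes by where CpG methylation lies around them. In that grouping mir-322 and mir-503 belong to the group methylated upstream of the hairpin and mir-351 and mir-450a-1 to the flat group. The remaining genes of the cluster were in no group. The study counts the flat group as unmethylated because its hairpin borders do not stand out. It also describes these loci as having an even level of methylation throughout, so the name does not mean that methylation is absent. The hairpin of Mir322 held 4 CpG dinucleotides in 95 bases, that of Mir542 held 3, and Mir503, Mir450-2, Mir450-1 and Mir450b held 1 each. The median over the other 999 mouse hairpins of the table was 1.

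Recovered counts, the whole numbers of barcodes behind the values, summed to between 511661 and 613666 in a sample. The 33 probes for viral miRNAs, which have no target in mouse cells, averaged 31.5 normalized counts, and their mean plus 2 SD was 69.2. This level was used as background, and 42.0% of the mouse probes lay above it on average. The list of miRNAs of pluripotent cells, the miR-290 to miR-295 and miR-302 families with miR-367, summed to between 332465 and 338494 in WT and between 273147 and 297060 in TKO, out of totals of 505671 to 596052 normalized counts over all probes. These are the miRNAs known to dominate ESCs. In a bulk sample fewer cells of a type and less RNA per cell cannot be told apart.

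The cluster was at a low level in both genotypes. Only miR-322 and miR-450a-5p averaged above background, and the other 7 probes lay between 12.63 and 51.37 normalized counts in all samples, within the range of the viral probes. The means of these 2 miRNAs differed between genotypes in opposite directions. miR-322 had the higher mean in TKO, 148 ± 28.9 normalized counts against 78.1 ± 4.62 in WT (SD, n = 2 each), and miR-450a-5p the lower, 121 ± 14.1 against 192 ± 12.8. Neither difference passed an adjusted p of 0.05 in limma. The summed level of the 9 probes stayed between 441 and 487 normalized counts in every sample. This sum includes the 7 probes within the viral range and adds 2 opposite differences, and different probes need not bind equally well. It is therefore not read as the output of the cluster.

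**Figure D1:**
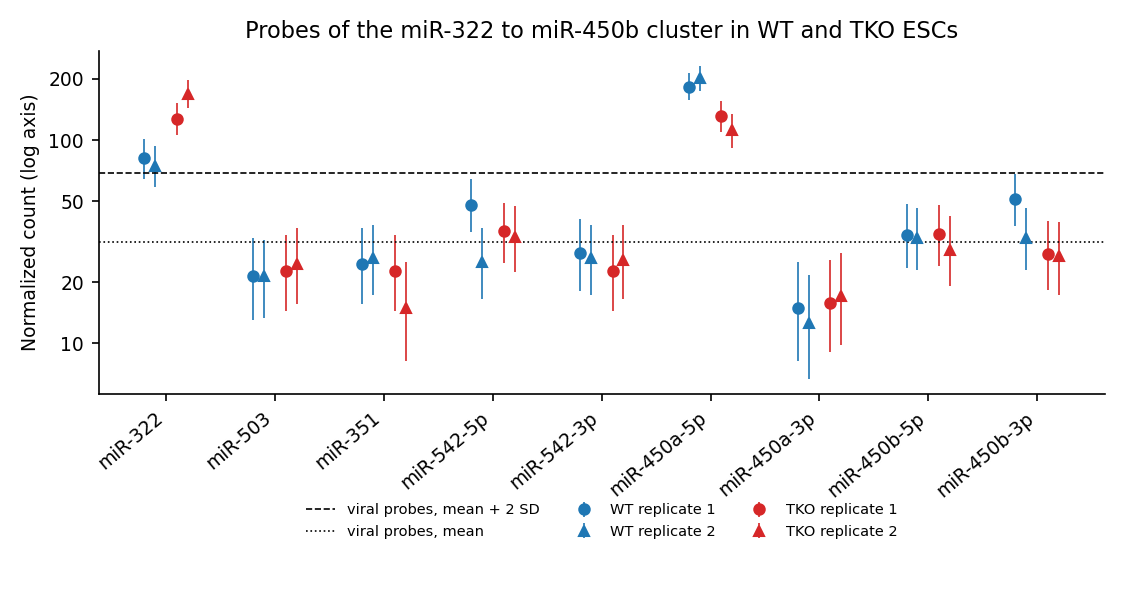
Normalized count of each of the 9 probes on a log axis, in the order of transcription. Each point is 1 sample, WT in blue and TKO in red, with circles for replicate 1 and triangles for replicate 2, and vertical bars give the 95% Poisson interval of its recovered count. The dashed line at 69.2 is the background level and the dotted line at 31.5 is their mean. Only miR-322 and miR-450a-5p sit above the dashed line, with TKO above WT for the former and below it for the latter.

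mmu-miR-322, from the most upstream gene, stood at 81.33 and 74.79 normalized counts in WT and at 127.49 and 168.3 in TKO. Both TKO samples were above both WT samples. The recovered counts behind these values were 76 and 77 in WT and 129 and 157 in TKO, and the 95% Poisson intervals, which cover counting error only, ran from 59.0 to 102 normalized counts over the WT samples and from 106 to 197 over the TKO samples. The intervals of the genotypes did not overlap, so the gap was larger than counting error. On the log2(normalized count + 1) scale the difference, TKO minus WT, was 0.90 (SE 0.20, 95% interval 0.37 to 1.43), with an unadjusted p of 0.00832 and an adjusted p of 0.0772 in limma, two-sided with Benjamini-Hochberg adjustment over the 566 probes. The probe ranked 61 by p, just beyond the 48 that were called.

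The WT level of miR-322 was close to background. Taken sample by sample, the background level set from the viral probes was 88.1 in WT replicate 1, above the 81.33 of miR-322 there, and 64.4 in WT replicate 2, below its 74.79. In both TKO samples miR-322 was above the sample's own limit, 60.4 and 71.0. The ratio of the group means was 1.89, and after the viral mean was subtracted from every value the log2 difference was 1.36.

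miR-450a-5p, the mature arm shared by Mir450-1 and Mir450-2 at the other end of the cluster, was at 183 and 201.06 normalized counts in WT and at 131.44 and 111.49 in TKO. All 4 values were above background, both TKO samples were below both WT samples, and the recovered counts were 171 and 207 in WT and 133 and 104 in TKO. The 95% Poisson intervals ran from 157 to 230 in WT and from 91.1 to 156 in TKO. They did not overlap either, with 157 as the lowest bound in WT and 156 as the highest in TKO. This narrow margin is for the authors' scaling, which the intervals take as exact. Under other scalings of the samples the log2 difference was smaller in size (-0.63 to -0.44), and the intervals were not computed for them. The log2 difference was -0.66 (SE 0.17, 95% interval -1.11 to -0.21), with an unadjusted p of 0.0143 and an adjusted p of 0.111 in limma, and the ratio of the group means was 0.633.

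**Figure D2:**
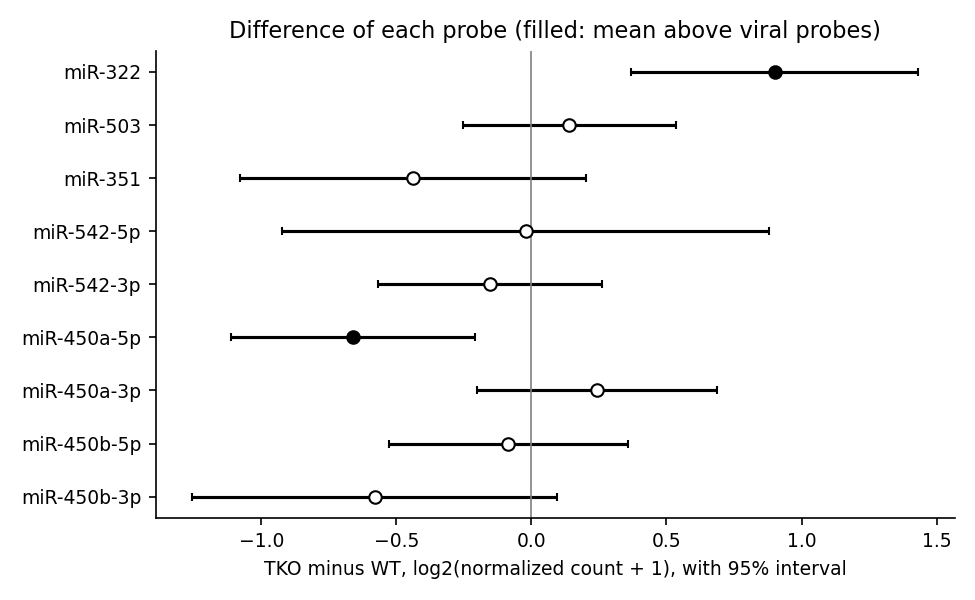
Log2 difference, TKO minus WT, of the 9 probes with its 95% interval from limma, in the order of transcription from top to bottom. Filled points are probes whose mean was above background and open points those below it. Only the intervals of miR-322 (0.37 to 1.43) and miR-450a-5p (-1.11 to -0.21) leave out 0, and these intervals are not adjusted for the number of probes.

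Because both miRNAs were counted together in each sample, their ratio within a sample does not depend on how the samples were scaled to each other. miR-450a-5p was 2.25 and 2.69 times miR-322 in the WT replicates and 1.03 and 0.662 times in the TKO replicates. This compares counts of different probes, which need not bind equally well, so the ratio is read between samples and not as a ratio of molecules. On the log2 scale the ratio was 1.29 ± 0.18 in WT and -0.27 ± 0.45 in TKO (SD, n = 2 each), a difference of -1.56 against a pooled SD of 0.34. Every WT ratio was above every TKO ratio, which was already fixed by the separate values of both miRNAs. The exact two-sided permutation test therefore had to give p = 0.333, the smallest that 2 samples against 2 can give, and adds no evidence.

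**Figure D3:**
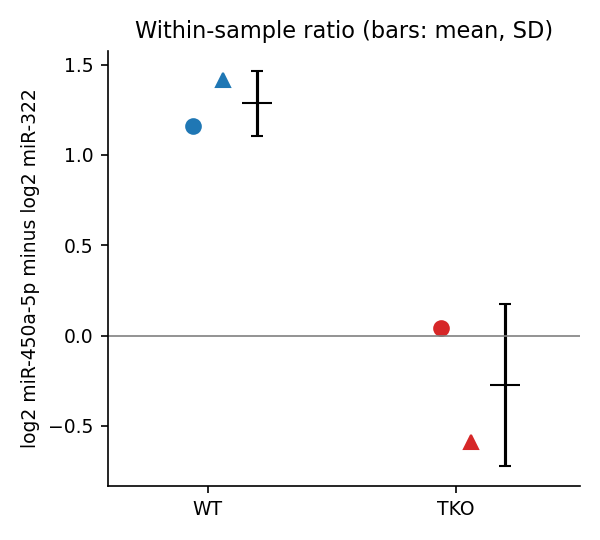
Log2 of miR-450a-5p minus log2 of miR-322 within each sample, WT in blue and TKO in red, with circles for replicate 1 and triangles for replicate 2, and the mean and SD of each genotype in black. A value of 0 means equal normalized counts. The WT samples lie at 1.16 and 1.41 and the TKO samples at 0.044 and -0.59.

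The other 7 probes gave no level that could be told from that of the viral probes, and their differences are given as measured. mmu-miR-503, which is encoded next to miR-322 and shares most of its seed, was at 21.4 and 21.37 normalized counts in WT and at 22.73 and 24.66 in TKO. The difference was 0.14 on the log2 scale (95% interval -0.25 to 0.53, adjusted p = 0.628 in limma), and with these levels below the viral mean it does not bear on whether miR-503 followed miR-322. mmu-miR-351, the member with the miR-125 seed, was at 24.61 and 26.23 in WT and at 22.73 and 15.01 in TKO. Its TKO values were below its WT values, and the difference of -0.44 had an interval of -1.08 to 0.20 (adjusted p = 0.347 in limma). It was -0.15 without TKO replicate 2 and -0.72 without TKO replicate 1.

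miR-542-5p was at 48.16 and 25.25 normalized counts in WT and at 35.58 and 33.23 in TKO. The WT replicates lay on either side of the TKO samples, and the log2 difference was -0.022 (adjusted p = 0.989 in limma). miR-542-3p was at 27.82 and 26.23 in WT and at 22.73 and 25.73 in TKO, with a difference of -0.15 (adjusted p = 0.623 in limma). For neither arm was a level of miR-542 measurable here.

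miR-450b-3p was at 51.37 and 33.02 normalized counts in WT and at 27.67 and 26.8 in TKO, the widest gap among the probes below background. Its difference of -0.58 had an interval of -1.26 to 0.096 (adjusted p = 0.258 in limma), and the distance between its WT replicates was larger than that between WT replicate 2 and the TKO samples. Leaving out WT replicate 1 gave -0.27 and leaving out WT replicate 2 gave -0.89. The difference was -2.99 after the viral mean was subtracted, which put both TKO samples at the floor of that scale. miR-450b-5p was at 34.25 and 33.02 in WT and at 34.59 and 28.94 in TKO (difference -0.085, adjusted p = 0.805 in limma). The genotypes overlapped for this arm. miR-450a-3p, from the opposite arm of the hairpins that give miR-450a-5p, was at 14.98 and 12.63 in WT and at 15.81 and 17.15 in TKO (difference 0.24, adjusted p = 0.451 in limma). The 3p arm gave no level against which the values of miR-450a-5p could be read.

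Counted over the cluster, limma called 0 of the 9 probes, beside 48 of all 566 mouse probes or 8.48%, of which 24 were lower and 24 higher in TKO. At an unadjusted p under 0.05 there were 2 members, 1 lower and 1 higher, among 133 of all mouse probes. A test that takes counting error into account, limma's voom on the recovered counts, called miR-322 higher (adjusted p = 0.0301) and miR-450a-5p lower (adjusted p = 0.0361), 2 of 9 beside 15.0% of all probes. Both TKO samples lay outside the WT range for 7 of the 9 members, 4 lower and 3 higher, beside 53.4% of all mouse probes. Of the 9 members 6 had the lower mean in TKO and 3 the higher, though miR-450b-5p and both arms of miR-542 turned to the higher mean under other scalings of the samples, and the median difference was -0.085 on the log2 scale beside -0.12 over all mouse probes, 61.7% of which had the lower mean in TKO. Leaving out 1 sample at a time called none of the members, and of all 566 probes it called 14 without WT replicate 1, 9 without WT replicate 2, and 0 without TKO replicate 1 or TKO replicate 2. Every call that limma made over all 566 probes and that is given below for a probe outside the cluster was therefore lost without either TKO replicate. The voom fit and the fit of only the probes above background were not repeated with samples left out.

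The relatives that share the seed of miR-322 are made from other chromosomes. All 5 probes, miR-15a, miR-15b, miR-16, miR-195 and miR-497 (below background on average), had the lower mean in TKO, under every alternative, beside 61.7% of all mouse probes. The median difference was -0.39 on the log2 scale, beside -0.12 over all mouse probes. It ranged from -0.49 to -0.18 under other scalings and left-out samples. Over all mouse probes limma called 8.48% and voom 15.0%. Only miR-15b, which comes from a cluster with one of the copies of miR-16, passed the test in limma, while voom called 2 lower, miR-15b and miR-16. It was at 2846 and 2858 normalized counts in WT and at 1549 and 1612 in TKO, a log2 difference of -0.85 (SE 0.14, adjusted p = 0.0403 in limma). The call held under 6 of the 11 alternatives that kept all samples and was lost whenever a sample was left out (adjusted p from 0.171 to 0.190 in limma). miR-16 was at 7784 and 7005 in WT and at 5382 and 5843 in TKO (difference -0.40, adjusted p = 0.225 in limma), and the values of miR-15a and miR-195 were -0.39 each. The 5 relatives together summed to 11957 and 11192 normalized counts in WT and to 7865 and 8565 in TKO, so the counts of miR-322 were small beside theirs in both genotypes. Among the probes with the full seed, miR-322 alone had the higher mean in TKO, and the difference between it and its relatives was not tested. miR-503, which departs at the last seed base, also had the higher mean in TKO (log2 difference 0.14), at levels below the viral mean.

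For the seed of miR-351, limma called 0 of 2 relatives and voom called 1, miR-125b-5p, beside 8.48% and 15.0% of all mouse probes. At an unadjusted p under 0.05 in limma there was 1, beside 133 of all 566 mouse probes. miR-125a-5p was at 975 and 869 normalized counts in WT and at 827 and 794 in TKO (difference -0.18, of the opposite sign under median of ratios scaling, adjusted p = 0.551 in limma). miR-125b-5p, below background on average, was at 79.19 and 89.36 in WT and at 40.52 and 49.31 in TKO (difference -0.90, adjusted p = 0.0610 in limma). With miR-351 itself at 26.23 normalized counts or less, most of the counts for this seed were those of miR-125a-5p.

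Within 1 Mb of Mir322 the table held 7 more probes, 6 of them for the miR-106a to miR-363 cluster, the X-linked copy of the miR-17 to miR-92 cluster, whose hairpin Mir363 lies 313 kb from Mir322 on the same strand. All 7 neighbours, of which miR-92a and miR-717 were below background on average, had the lower mean in TKO, beside 61.7% of all mouse probes. Their median difference was -1.06 on the log2 scale, beside -0.12 over all mouse probes. limma called 4 of the 7 lower, beside 24 of all 566 mouse probes. Of the 7 neighbours miR-717 alone turned to the higher mean without WT replicate 1. miR-363, a product of this cluster alone, was at 315 and 345 normalized counts in WT and at 59.3 and 51.5 in TKO, a log2 difference of -2.55 (SE 0.16, adjusted p = 0.00473 in limma). miR-18b, likewise encoded at no other place, was at 192 and 177 in WT and at 45.5 and 53.6 in TKO (difference -1.88, adjusted p = 0.00841 in limma). The TKO values of miR-363 and miR-18b were below the background level of 69.2 and could not be told from those of the viral probes. The sizes of both differences therefore depend on this floor. After the viral mean was subtracted limma no longer called miR-363, while miR-18b was still called. Without WT replicate 1 or 2 miR-363 was still called (adjusted p = 0.0296 and 0.0436 in limma), while miR-18b (0.0680 and 0.0641), miR-106a+miR-17 and miR-20a+miR-20b were not. The miR-106a+miR-17 and miR-20a+miR-20b probes, which were also called lower with differences of -1.31 and -1.06, read miRNAs of chromosome 14 as well, as do the miR-19b and miR-92a probes, which limma did not call. voom called 5 of the neighbours lower, miR-19b among them, beside 55 of all 566 mouse probes. miR-717 lies on the far side of that cluster and differed by -0.24 (adjusted p = 0.612 in limma). The difference of miR-450a-5p had the same sign as that of these neighbours and that of miR-322 the opposite sign, and no test between the clusters was made.

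**Figure D4:**
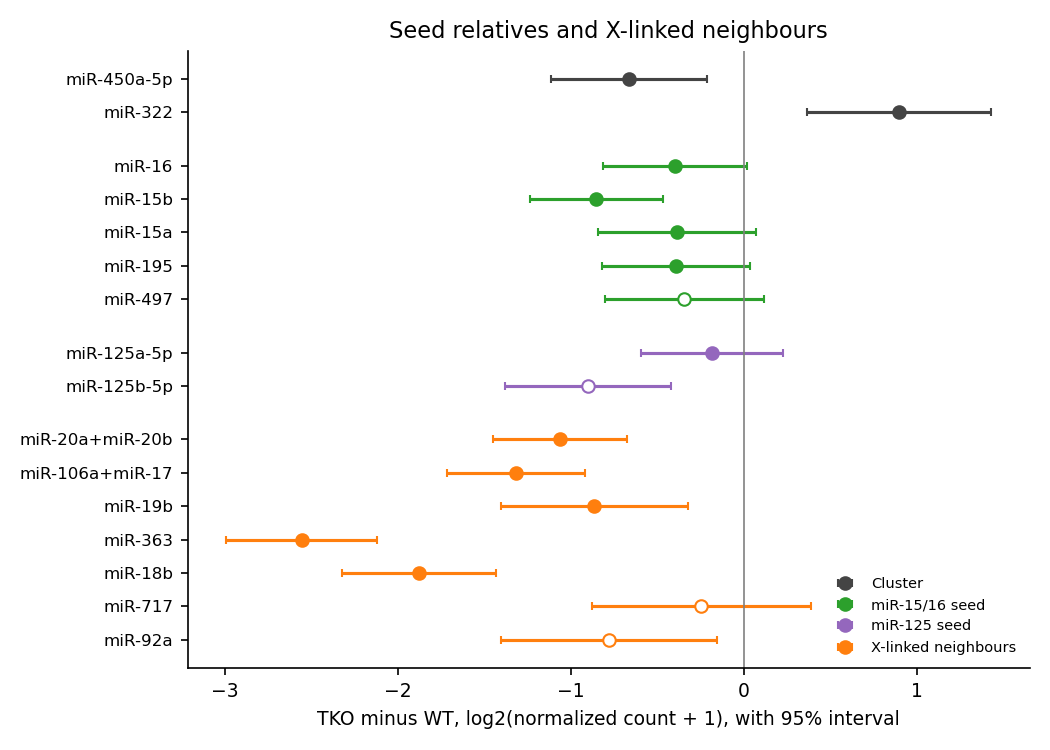
Log2 difference, TKO minus WT, with its 95% interval from limma, for the 2 members above background (grey), the probes with the seed of miR-15 and miR-16 (green), those with the seed of miR-125 (purple) and the X-linked probes within 1 Mb (orange). Filled points are probes whose mean was above background and open points those below it. Of the points drawn, miR-322 at 0.90 is the only one to the right of 0, and miR-363 at -2.55 lies furthest to the left. The members below background are not drawn, and miR-503 (0.14) and miR-450a-3p (0.24) among them also had positive differences.

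The probes whose pattern over the 4 samples was most like that of miR-322 were sought among the 237 other probes above background, by the root mean square difference of log2 values centred on their mean. The closest was miR-152, which is known to target the mRNA of Dnmt1, at a distance of 0.095, with mean normalized counts of 220 in WT and 411 in TKO (log2 difference 0.90, adjusted p = 0.0434 in limma). miR-21 followed at 0.16, with means of 463 and 918, and then miR-22 at 0.16, with means of 1185 and 2528. Both passed the test, with differences of 0.99 (adjusted p = 0.0263 in limma) and 1.09 (adjusted p = 0.0225 in limma). None of these 3 was called when any 1 sample was left out (adjusted p from 0.134 to 0.208 in limma). For miR-450a-5p the closest were miR-30b, let-7g and miR-297c, at distances of 0.075 to 0.079 and with log2 differences of -0.56, -0.58 and -0.52, none of which was called in limma (adjusted p from 0.115 to 0.204). A likeness over 4 samples in 2 groups rests mainly on the difference between the groups.

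miR-21 and miR-22 belong to the list of miRNAs known from fibroblasts and mesenchyme. Of the 10 probes of that list limma called 2 higher, these 2, beside 24 of all 566 mouse probes, and 6 were above background. The list summed to 2277 and 2347 normalized counts in WT and to 3913 and 4110 in TKO, of which miR-21 and miR-22 made up the greater part. The probes that mark such cells more narrowly were not called in limma over all 566 probes, though 2 of the list were lower at an unadjusted p under 0.05, and miR-199a-3p was called lower when only probes above background were tested. miR-145 was at 240 and 201 in WT and at 198 and 162 in TKO, and miR-199a-3p was at 95.24 and 122.38 in WT and at 72.15 and 61.1 in TKO. Also above background, miR-143 was at 108 and 98.1 in WT and at 87.0 and 120 in TKO. miR-31 was at 108 and 111 in WT and at 95.9 and 106 in TKO. Of the 10 probes 6 had the lower mean in TKO and 4 the higher. The median difference was -0.063 on the log2 scale, of either sign under other scalings and left-out samples (-0.14 to 0.15). miR-214 and miR-199a-5p were below background, and the part of such cells in the level of miR-322 was not tested. None of the listed fibroblast probes was at 0, which does not show presence, since the viral probes averaged 31.5 normalized counts. Of the 6 muscle probes 0 were above background, and limma and voom both called 0, with 1 below an unadjusted p of 0.05.

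The counts of the fibroblast, muscle and following lists stand beside 8.48% of all mouse probes called in limma and 15.0% in voom. Below an unadjusted p of 0.05 in limma were 133 of all 566. Of the 16 probes of the pluripotent list limma called 4 higher and none lower, while voom called 4 higher and 3 lower. The 4 in limma were miR-302a, miR-302c, miR-302d and miR-367. Of these, miR-302c was at 6.42 and 7.77 normalized counts in WT and at 21.7 and 24.7 in TKO. All of its values were below the viral mean, so it gave no level that could be told from that of the viral probes. The median difference of the list was -0.059 on the log2 scale, of either sign under other scalings and left-out samples (-0.12 to 0.15). Of the 9 let-7 and miR-98 probes, which mark differentiation in general, limma called 0, voom called 1 and 1 was below an unadjusted p of 0.05, and the median was -0.15 (-0.19 to 0.067 under the same alternatives). Of these 9 probes 7 were above background. let-7a stood at 0.97 to 1.07 normalized counts in every sample, so it gave no level, and miR-98 was below background. Of the neural probes 1 of 4 was called lower in limma and in voom, miR-124. Of the blood probes limma called 1 of 6, miR-150, which was lower, and voom called 1 lower and 1 higher. Of the endoderm and liver probes 0 of 4 were called in limma and voom, with 1 below an unadjusted p of 0.05.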

How the data were processed

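Total RNA was isolated with a miRNeasy kit and mature miRNAs were counted with the NanoString nCounter assay in 2 WT and 2 TKO samples. The authors deposited log2 values after normalization in nSolver. The nSolver version, the background handling and the probes that set the scaling are not given in the sources used here. The values were turned back to normalized counts. In each sample these were whole multiples of 1 step (within 0.05 for 100% of values), which gave recovered counts of 511661 to 613666 in a sample. The 33 viral probes were taken as background (mean plus 2 SD).

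All 566 mouse probes were tested on log2(normalized count + 1) with limma 3.58.1 (lmFit and eBayes, R 4.3.3) without covariates, two-sided, at a Benjamini-Hochberg adjusted p of 0.05. limma fits used no counts except voom, which kept the scaling of the authors. A ratio between the 2 members above background was compared with an exact permutation test over samples (Python 3.11.15, numpy 2.4.6). Poisson intervals (95%, scipy 1.17.1) cover counting error only. The fits were tested on simulated data.

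Named were all probes of the cluster, up to 4 probes with the highest mean of each seed and neighbour list and, for members above background, the 3 probes of nearest profile. The highest means were also planned for the marker lists (pluripotent, fibroblast, muscle, neural, endoderm and liver, blood, let-7), but this was not kept to. Probes given beyond the lists kept to, such as miR-497, miR-18b, miR-717, the fibroblast markers, let-7a, miR-98 and called members, were chosen after their values were seen. The members and lists were chosen with earlier results of these data known. Sequences and coordinates are from RefSeq tables of GRCm38.p6. The build was used for names and positions of genes only, since the deposited table has no coordinates, and 13 distinct mature sequences of the cluster were found there. Alternatives changed the pseudocount, the scaling, the filter, the background, the variance model, the replicate block and the samples.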

Additional observations from a re-analysis of the deposited data

How the results depend on the processing

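The difference of miR-322 kept its direction under all 15 alternatives (0.70 to 1.36 on the log2 scale, limma adjusted p from 0.0168 to 0.253), and so did that of miR-450a-5p (-0.81 to -0.44, adjusted p from 0.0233 to 0.313). miR-322 passed the threshold with sum scaling (1.03), median of ratios scaling (1.12) and viral probe scaling (0.93), and at an unchanged difference of 0.90 when only the 238 probes above background were tested, with an intensity trend in limma and with voom. miR-450a-5p passed it in the last 3 of these alone, at -0.66 each. The count of members called was thus 1 under these 3 scalings and 2 under these 3 tests, against 0. Beside them 44, 43 and 57 of all 566 mouse probes were called under the scalings, 74 of the 238 probes above background, and 84 and 85 of 566 with the trend and voom. Leaving out 1 sample gave 0.70 to 1.10 for miR-322 and -0.78 to -0.54 for miR-450a-5p. The within-sample log2 ratio differed by -2.17 after the viral mean was subtracted. The 7 probes below background gave 94 alternative values, of which 0 were called and 13 turned in sign, those of miR-450b-5p to 0.046 (sum), 0.078 (top 100), 0.12 (median of ratios), 0.29 (viral mean subtracted) and 0.039 (without TKO replicate 2, with -0.21 as the lowest value without 1 sample), miR-542-3p to 0.0083 (top 100) and 0.055 (median of ratios), and miR-542-5p to 0.11, 0.14 and 0.19 (these 3 scalings), 0.0092 (viral probes), 0.43 (without WT replicate 1) and 0.026 (without TKO replicate 2, with -0.47 as the lowest value without 1 sample). For 4 of them subtraction left all samples at the floor and no value. The scalings moved the median of all probes from -0.12 to as much as 0.089. Why these values moved was not tested. With the replicate block the adjusted p was 0.145 for miR-322 (0.90) and 0.239 for miR-450a-5p (-0.66), and 30 mouse probes were called against 48. The labels do not pair the numbers, and the deviations of same-numbered samples correlated at -0.094 over all probes and -0.243 over those above background. The crossed pairing, added after the data were seen, called 64. The 7 low probes had recovered counts of at most 48 and levels within the range of the viral probes.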
